A study of Mus musculus with 6 samples.

Results

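The genes described here are 40 members of the machinery that licenses replication origins and runs replication forks, taken by symbol: Mcm2 to Mcm8 and Mcm10, Orc1 to Orc6, Cdc6, Cdt1, Gmnn, Cdc45, Cdc7, Gins1 to Gins4, Pcna, Pola1, Pola2, Prim1, Prim2, Pold1, Pole, Rfc1 to Rfc5, Rpa1 to Rpa3, Fen1 and Lig1. They are 40 of the 21631 protein-coding genes that were annotated on the chromosomes used here, and all 40 matched the gene table. Their chromatin accessibility was read from ATAC-seq, an assay that uses the Tn5 transposase to cut into and tag open stretches of DNA. Hematopoietic stem cells of the bone marrow were sorted as Lin-Sca-1+c-Kit+CD48-CD150+ from C57BL/6 mice aged 3 months. By the labels, the 3 Dek_cKO libraries came from Dekfl/fl mice that carried the transgene Tie2-Cre. Its Tek (Tie2) control DNA expresses Cre in endothelial and blood cells. The 3 Dek_fl libraries came, also by the labels, from Dekfl/fl mice without Cre, so both groups carried loxP sites in both Dek alleles. Dek encodes a chromatin protein. The labels do not say whether the libraries of a group came from separate animals, so the spread behind each p-value is that between libraries and may be technical in part or in whole.

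In G1, the origin recognition complex (Orc1 to Orc6) binds DNA and, with Cdc6 and Cdt1, loads the MCM2-7 helicase around it, which is called licensing; geminin (Gmnn) blocks Cdt1 after S phase begins. The Cdc7 kinase, Cdc45 and the GINS complex then turn the loaded helicase into an active fork, where primase, the polymerases, the PCNA clamp and its RFC loader, the RPA single-strand binding proteins and the Okazaki fragment enzymes copy the DNA. Adult hematopoietic stem cells are mostly quiescent, and in quiescent cells many of these genes are known targets of E2F factors that work with RB family proteins and the DREAM complex as repressors. Peak lists report open DNA and not transcription, and no RNA level was measured in the data used here.

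Of the 40 genes, 32 have a start in the RefSeq promoter table of build GRCm38.p6. The bases before the start are shown for 7 of them, chosen because the accessibility results below turn on them or because they differ in the motif described next. Each stretch covers the 150 bases before the start, 5′ to 3′ on the gene's strand, and capitals mark E2F-type motifs on either strand.
Mcm2: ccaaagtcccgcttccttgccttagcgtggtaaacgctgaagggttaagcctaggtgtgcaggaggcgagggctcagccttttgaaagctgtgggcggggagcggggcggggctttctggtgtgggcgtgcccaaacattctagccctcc
Mcm5: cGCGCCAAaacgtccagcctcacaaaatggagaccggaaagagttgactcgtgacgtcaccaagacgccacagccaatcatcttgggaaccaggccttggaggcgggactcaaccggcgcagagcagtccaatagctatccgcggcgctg
Mcm6: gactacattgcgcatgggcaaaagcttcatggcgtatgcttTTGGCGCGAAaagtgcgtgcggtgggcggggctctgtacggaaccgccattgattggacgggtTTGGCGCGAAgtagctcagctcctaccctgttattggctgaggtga
Orc1: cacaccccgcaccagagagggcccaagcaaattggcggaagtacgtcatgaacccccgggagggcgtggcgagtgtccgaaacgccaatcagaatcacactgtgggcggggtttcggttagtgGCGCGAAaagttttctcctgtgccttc
Orc3: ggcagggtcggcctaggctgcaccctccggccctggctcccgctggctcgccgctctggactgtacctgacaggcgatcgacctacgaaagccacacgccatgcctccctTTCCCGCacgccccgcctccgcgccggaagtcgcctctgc
Pola1: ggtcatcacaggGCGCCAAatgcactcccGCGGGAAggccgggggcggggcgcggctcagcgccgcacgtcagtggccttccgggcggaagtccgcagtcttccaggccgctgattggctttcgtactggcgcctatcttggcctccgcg
Fen1: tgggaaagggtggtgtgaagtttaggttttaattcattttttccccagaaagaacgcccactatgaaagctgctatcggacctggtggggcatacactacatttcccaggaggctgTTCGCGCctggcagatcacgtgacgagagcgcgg

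These stretches lie at chr6:88898781-88898930 on the minus strand (Mcm2), chr8:75109359-75109508 on the plus strand (Mcm5), chr1:128359706-128359855 on the minus strand (Mcm6), chr4:108579304-108579453 on the plus strand (Orc1), chr4:34614943-34615092 on the minus strand (Orc3), chrX:93632156-93632305 on the minus strand (Pola1) and chr19:10203922-10204071 on the minus strand (Fen1). The E2F-type motif was searched in 4 forms. One form was TTCCCGC and the next was TTCGCGC. A further form was TTGCCGC, and the last of the forms was TTGGCGC. Each was searched on both strands, in windows of 300 bases from 250 before to 50 after the start. The Mcm6 stretch holds 2 copies of TTGGCGCGAA, in which TTGGCGC and the reverse strand's TTCGCGC overlap, and the Mcm2 stretch holds no E2F-type motif. At least 1 E2F-type motif was found in 22 of 32 member windows, or 68.8%. The same search matched 9.64% of all 32619 windows in the table, and 18.9% of 8924 windows taken as 1 per protein-coding gene whose start carried a peak in all 6 libraries.

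Other motifs were searched in the same windows. CCGGAAG, the core bound by ETS factors, was in 14 of 32 member windows (43.8%), against 20.3% of the windows of genes with a peak at the start in all 6 libraries. CCAAT, bound by the NF-Y factor, was in 20 member windows (62.5%), against 39.7%. GCGCATG, a core of the NRF1 site, was in 6 (18.8%), against 7.84%. The GC box GGGCGG was in 24 (75%), against 69.1%, and TTTGAA, the cell cycle homology region of many mitotic genes, was in 4 (12.5%), against 11.1%. TATAAA was in 1 member window (3.13%), against 6.04%. A match is a description of the letters and not a bound site. The 21 members with an E2F-type motif and a ranked region had a median accessibility percentile, defined below, of 83.2 (44.0 to 96.8), and the 10 without had 81.8 (15.4 to 94.3).

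The peak lists were called per library and held 70756, 73173 and 27170 peaks in the Dek_cKO libraries of replicates 1, 2 and 3, and 52451, 71555 and 23813 peaks in the Dek_fl libraries. Replicate 3 of both groups was scored in another way and from a higher threshold, so replicates 1 and 2 and replicate 3 are given apart where it matters. Read depth is not given in these lists, a region without a call may still be open, and the fold of a peak over its local background is the authors' own value, used here for ranks within a library. Dek itself had a peak at its start in all 6 libraries, with a fold over background of 5.13, 4.26 and 10.1 in Dek_cKO libraries and 4.13, 4.39 and 10.8 in Dek_fl libraries. A start peak does not check a deletion, since the lists do not show the deleted part. The peak at the start of Tek, whose control DNA the transgene carries, was stronger in the Dek_fl libraries, with a −log10 p of 32.9, 20.5 and 8.59 in Dek_cKO libraries and 260, 576 and 56.6 in Dek_fl libraries. The labels place the transgene in the Dek_cKO libraries, where this peak was weaker. Whether the labels match the genotypes was not tested. Directions are therefore between libraries as labelled, and genotype below means the label. A gene-end peak in all 6 libraries was called for 2 of 10 stem cell, 3 of 6 erythroid and 1 of 5 endothelial marker genes, for none of 6 T and NK cell, 6 B cell or 7 myeloid marker genes, and for 3 of 8 hepatocyte and keratinocyte genes. By library, the stem cell markers had 9, 9 and 5 such genes in the Dek_cKO libraries and 9, 10 and 2 in the Dek_fl libraries. Myeloid markers had 4, 4 and 3 in the Dek_cKO libraries and 2, 4 and 1 in the Dek_fl libraries, and B cell markers 4, 4 and 0 in the Dek_cKO libraries and 1, 4 and 0 in the Dek_fl libraries. These calls do not set stem cells apart from other cells, and the part of other cells in the results below was not tested.

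Nearly every replication gene had open chromatin at its start in both genotypes. A peak within 1 kb of an annotated gene end was called in all 6 libraries for 35 of 40 members (87.5%), against 48.8% of all protein-coding genes. By library, 37, 37 and 36 members had one in the Dek_cKO libraries, and 37, 37 and 35 in the Dek_fl libraries. The mean share was 91.7% ± 1.44 in Dek_cKO libraries and 90.8% ± 2.89 in Dek_fl libraries (SD, n = 3 each), a difference of 0.833 percentage points that was smaller than the spread. Without Dek_fl replicate 3 this difference was -0.833 points. Over all protein-coding genes the shares were 67.4%, 67.6% and 52.0% in the Dek_cKO libraries and 63.6%, 67.7% and 51.4% in the Dek_fl libraries, so replicate 3 called fewer genes in both groups while the members stayed at 35 or more. No member had a peak in all Dek_cKO libraries and no Dek_fl library (0.0139% of all protein-coding genes did), and none had the opposite pattern (0% of all).

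Taken by the listed start alone, 31 of 32 members had a peak there in all 6 libraries, against 51.7% of 17274 protein-coding genes with a listed start. The 5 members that missed the gene-end count were Orc1, Orc4, Rfc1, Lig1 and Prim1. The annotated spans of Orc1, Orc4 and Rfc1 run past their listed start, so the 1 kb window missed their start peak in every library, and the region at that start was called in all 6. The peaks of Lig1, the ligase that seals Okazaki fragments, lay near the edge of the window, which caught 2 Dek_cKO and 2 Dek_fl libraries, and its start region was also called in all 6. Prim1, the catalytic subunit of the primase that makes RNA primers, was the 1 member without a peak at its start in some library. Its region, chr10:128014739-128016067, had a fold of 9.52, 11.8 and 8.87 in Dek_cKO libraries, and of 6.03 and 9.21 in replicates 1 and 2 of Dek_fl, with no peak in Dek_fl replicate 3. The −log10 p of the Prim1 peak was 52.5, 63.7 and 15.2 in Dek_cKO libraries and 19 and 74.4 in the 2 Dek_fl libraries that had it. In replicates 1 and 2 the −log10 p of Prim1 overlapped between the genotypes, while its fold was higher in Dek_cKO without overlap. Fold was used here for ranks within a library, and the Prim1 region was not among those ranked. With all lists cut to the same length, Prim1 was again called in 3 Dek_cKO and 2 Dek_fl libraries.

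The peaks sat at the annotated starts. Among the 32 members with a listed start, the median summit position relative to the start was -39, -44 and -9.5 bp in the Dek_cKO libraries and -58.5, -47 and -3 bp in the Dek_fl libraries, negative values being upstream. Summits lay within 250 bp of the start in every library that had a peak for 30 of the 32. Cdc6, the ATPase that helps load MCM2-7, lay outside this range in each library. Its summits lay at -493, -427 and -428 bp from the listed start in Dek_cKO libraries and at -493, -447 and -427 bp in Dek_fl libraries. The annotated span of Cdc6 begins upstream of that start, at chr11:98907709 against chr11:98908151. The Cdc6 summits lay near the beginning of the span. Rpa3 lay outside the 250 bp range in Dek_fl replicate 3 alone, at -251 bp. The median width of the peaks at member starts was 1411.5, 1385.5 and 724 bp in Dek_cKO libraries and 1256, 1516.5 and 751 bp in Dek_fl libraries, so width went with the replicate number more than with the genotype.

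**Figure D1:**
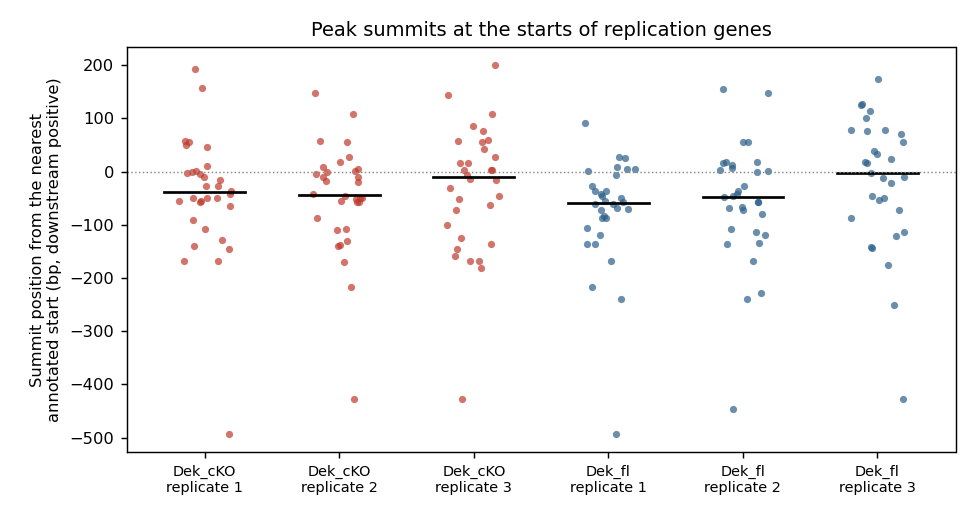
Position of the peak summit relative to the nearest annotated start (vertical axis, bp, downstream positive) for the replication genes with a listed start, in each of the 6 libraries (horizontal axis). Each point is 1 gene and the bar is the median, which lies between -58.5 and -3 bp. The lowest point of each library is Cdc6, whose listed start lies inside its annotated span.

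Away from the starts, most regions were not called in all libraries. Inside the gene bodies 40 regions were called in at least 1 library, spread over 19 members, and the other 21 members had none. Of the 40, 6 were called in all 6 libraries, 1 each in Mcm5, Cdc6, Prim2, Pold1, Rfc1 and Lig1. Over all regions of any place, 19683 of 84592 were called in all 6 libraries. The number of body regions was 31, 30 and 9 in the Dek_cKO libraries and 16, 32 and 8 in the Dek_fl libraries, and none was called in every library of one genotype and no library of the other. Prim2, the regulatory primase subunit and the gene with most such regions, held 12 over its 216001 bp. Of 9 regions at the far end of a member, 1 was called in all 6 libraries, at chr2:132246840-132248359 beside Pcna. These counts were not made for the gene bodies and far ends of all genes, so they are not set against a background.

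The strength of each region was described by its percentile of fold among the 19683 regions called in all 6 libraries, ranked within each library, so that 100 is the highest. With 1 region per gene, 39 members had such a region, all but Prim1. The median over these members was 81.0, 81.6 and 82.6 in the Dek_cKO libraries (mean 81.8 ± 0.784) and 86.7, 78.0 and 83.1 in the Dek_fl libraries (mean 82.6 ± 4.41). Over the 10015 protein-coding gene regions ranked in the same way, the medians were 57.9, 58.0 and 60.9 in the Dek_cKO libraries and 63.5, 55.8 and 63.8 in the Dek_fl libraries. Replication gene regions therefore had higher medians than gene regions at large in each of the 6 libraries, and the genotypes overlapped. Of the 39 members, 35 had a mean percentile over the libraries above 50, 24 above 75 and 10 above 90. In single libraries, 84.6% to 89.7% of member regions lay above 50, against 55.8% to 63.9% of all protein-coding gene regions. The shares of all gene regions above 75 and 90 were not computed. In 15 of the 39 cases the region also lay within 1 kb of an end of another protein-coding gene, for example Rars2 beside Orc3, Prkdc beside Mcm4, Ap4m1 beside Mcm7 and Tmem258 beside Fen1, and such a region cannot be assigned to one gene.

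**Figure D2:**
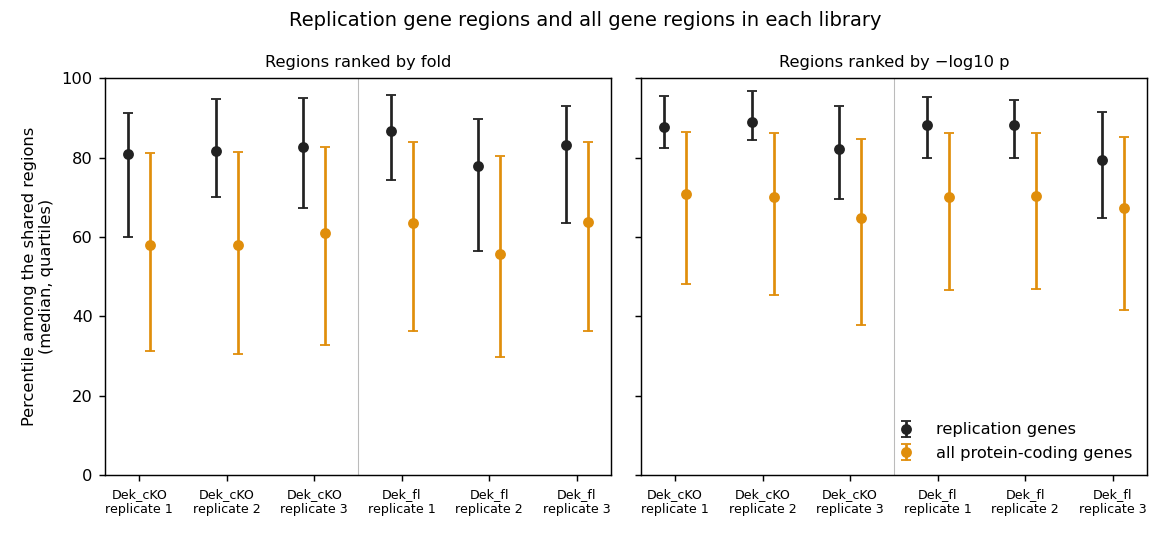
Median percentile (points) and quartiles (bars) of the replication gene regions (black) and of all protein-coding gene regions (orange) in each library, ranked by fold (left panel) or by −log10 p (right panel) among the regions shared by all libraries. By fold the replication genes lie between 78.0 and 86.7, against 55.8 to 63.8 for all genes.

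Within the MCM2-7 helicase, the ring that unwinds DNA at the fork, accessibility was spread widely. The median percentile of its 6 genes averaged 65.7 ± 9.89 in Dek_cKO libraries and 70.2 ± 12.6 in Dek_fl libraries. Mcm2, at chr6:88898118-88899090, had the lowest mean percentile of all 39 members, with 13.9, 28.1 and 16.4 in Dek_cKO libraries and 18.5, 9.15 and 6.19 in Dek_fl libraries. Its fold was 4.92, 6.56 and 6.48 in Dek_cKO libraries and 4.45, 4.01 and 5.02 in Dek_fl libraries. Mcm2 was thus a peak in every library but a low one. It is 1 of the 10 ranked members without an E2F-type motif, whose mean percentiles ran from 15.4 (Mcm2) to 94.3 (Rpa1). A link between motif and accessibility was not tested. Mcm7, at chr5:138170887-138172633, stood at 40.1, 41.1 and 49.9 in Dek_cKO libraries and 48.2, 39.6 and 63.0 in Dek_fl libraries. By −log10 p, which also grows with the number of reads, Mcm7 averaged 86.2 and Mcm2 52.1 over the 6 libraries. Mcm3 had the highest mean percentile of the ring, 83.6 ± 1.32 in Dek_cKO libraries and 81.6 ± 10.4 in Dek_fl libraries. Mcm4 averaged 76.8, Mcm5 74.8 and Mcm6 69.4 over the 6 libraries. Of the factors outside the ring that share the name, Mcm8, a helicase of recombination repair, averaged 93.8, and Mcm10, which helps activate the helicase, averaged 86.8.

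The origin recognition complex, on which the ring is loaded, had a median of 87.4 ± 5.66 in Dek_cKO libraries and 85.9 ± 4.88 in Dek_fl libraries. By −log10 p its median was 91.1 ± 2.19 in Dek_cKO libraries and 90.3 ± 5.36 in Dek_fl libraries, against 86.6 ± 3.98 and 86.1 ± 2.03 for the MCM2-7 genes in Dek_cKO and Dek_fl libraries. By fold, Orc members averaged from 80.4 (Orc4) to 90.5 (Orc2) over the 6 libraries, with Orc1, the subunit whose level is cell cycle regulated in mammals, at 88.4. Orc1, at chr4:108578709-108580222, had 84.5, 93.0 and 85.4 in Dek_cKO libraries and 96.6, 88.8 and 82.2 in Dek_fl libraries. Gmnn, the licensing inhibitor geminin at chr13:24761207-24762539, had the highest mean percentile of all members. It stood at 98.1, 99.3 and 96.2 in Dek_cKO libraries and 99.6, 98.1 and 96.9 in Dek_fl libraries, with folds of 11.5, 13.6 and 16.1 in Dek_cKO libraries and 10.8, 10.1 and 15.3 in Dek_fl libraries. Cdt1, its target, averaged 71.4 ± 8.22 in Dek_cKO libraries and 60.4 ± 17.1 in Dek_fl libraries. Within this group the inhibitor therefore lay above the loader it binds in each of the 6 libraries, a description without a test.

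Among the genes that fire origins, the median was 82.1 ± 4.36 in Dek_cKO libraries and 83.9 ± 5.73 in Dek_fl libraries. Gins4, a GINS subunit at chr8:23236915-23238297, was among the 4 highest members, with 92.1, 94.4 and 95.9 in Dek_cKO libraries and 96.9, 93.8 and 90.2 in Dek_fl libraries. Cdc7 averaged 92.5, Gins3 83.7, Gins2 80.9 and Gins1 68.9 over the 6 libraries, while Cdc45, which joins the ring and GINS into the active helicase, averaged 56.8. Gins3 depended on the replicate. It stood at 97.6 and 97.9 in replicates 1 and 2 of Dek_cKO and 95.5 and 98.1 in those of Dek_fl, but at 53.9 and 59.4 in replicate 3 of Dek_cKO and of Dek_fl.

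At the fork, the RPA genes, which coat single-stranded DNA, had a median of 92.8 ± 3.20 in Dek_cKO libraries and 92.7 ± 2.85 in Dek_fl libraries. Rpa1, at chr11:75347710-75349029, had 90.4, 98.9 and 95.1 in Dek_cKO libraries and 97.2, 90.3 and 93.6 in Dek_fl libraries. The clamp and clamp loader genes had a median of 85 ± 3.54 in Dek_cKO libraries and 83.8 ± 8.22 in Dek_fl libraries. In this group Rfc3 (92.6), Rfc4 (92.1), Rfc1 (82.9) and Rfc5 (81.3) stood high on average, and Pcna, the sliding clamp, was at 67.8. Rfc2, at chr5:134582277-134585215, was the lowest loader subunit, with 59.9, 37.9 and 38.4 in Dek_cKO libraries and 53.9, 40.0 and 41.4 in Dek_fl libraries. The polymerase and primase genes had the lower median of 68.5 ± 11.6 in Dek_cKO libraries and 66.1 ± 6.40 in Dek_fl libraries. Pola2 averaged 73.5, Pola1 70.9, Prim2 67.8 and Pole, the leading-strand polymerase, 51.2. Pold1, the lagging-strand polymerase at chr7:44548172-44549182, had 31.4, 23.9 and 82.5 in Dek_cKO libraries and 38.5, 23.6 and 64.2 in Dek_fl libraries, so it was low in replicates 1 and 2 and not in replicate 3 of either genotype. The 2 genes of Okazaki fragment maturation had a median of 81.0 ± 0.800 in Dek_cKO libraries and 88.4 ± 3.27 in Dek_fl libraries, and Fen1 is described below. Lig1, at chr7:13278055-13279267, was the second highest member, with 96.7, 97.9 and 95.7 in Dek_cKO libraries and 99.5, 98.2 and 93.0 in Dek_fl libraries.

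**Figure D3:**
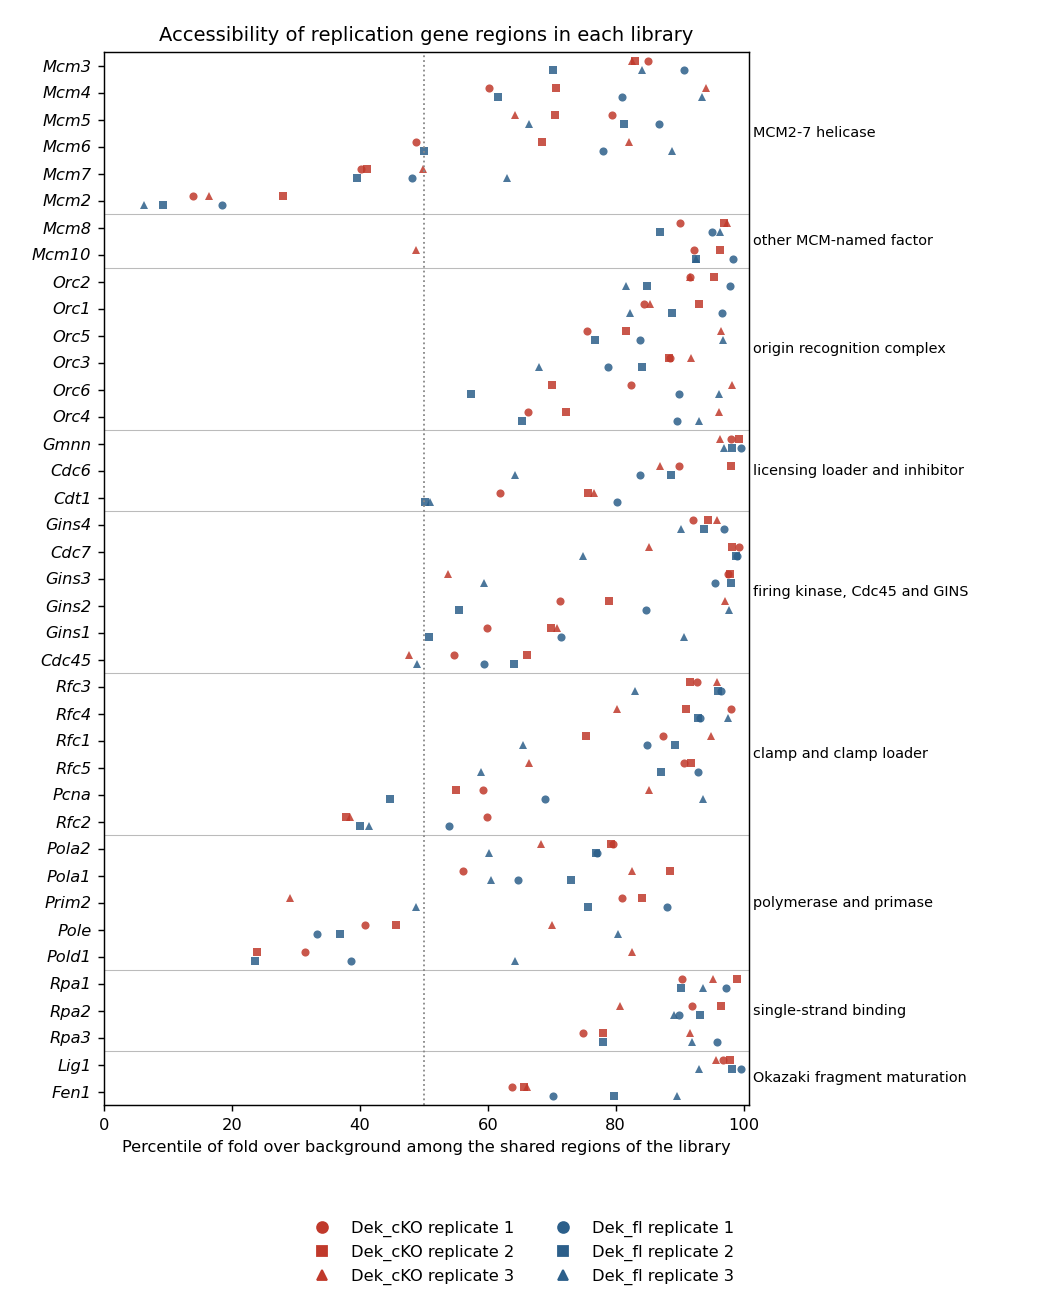
Percentile of fold among the shared regions (horizontal axis) for each of 39 replication gene regions (rows, grouped by role and ordered by mean), with 1 point per library; red is Dek_cKO, blue is Dek_fl, and the shape gives the replicate. Most rows lie right of the dotted line at 50, Mcm2 lies left of it in every library, and red and blue points of most rows overlap.

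For the difference between the genotypes, ranks of fold over the shared regions were turned into normal scores in each library. The scores were fitted with limma, and p-values were adjusted by the Benjamini-Hochberg method over the 19683 regions. No member region passed an adjusted p of 0.05 in either direction, and neither did any other region (0% higher and 0% lower). Blocking on the replicate number gave 1 call, higher in Dek_cKO, at a region of no member. The lowest adjusted p over the members was 1.0, and none of the 39 had an unadjusted p under 0.05, which 87 of all regions had. Without a block, differences between replicate numbers stay in the error of the fit. With the replicate block, 2 of the 39 members and 874 of the 19683 regions had an unadjusted p under 0.05. The score was higher in Dek_cKO for 22 members and lower for 17, against 9309 and 10374 of all 19683 shared regions. The median difference, Dek_cKO minus Dek_fl, was 0.02 over the members and -0.02 over all shared regions, with members between -0.61 and 0.63 and standard errors of 0.30 to 0.62. With the replicate block the standard errors of the members were 0.27 to 0.30, and no member passed. By pairs of one replicate number the member median was -0.29, 0.25 and 0.05 for numbers 1, 2 and 3, with an SD of 0.27 over these 3 values. Without Dek_fl replicate 2 the median over the members was -0.13, and without Dek_fl replicate 3 it was slightly negative. A missed threshold does not show that the genotypes were alike.

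**Figure D4:**
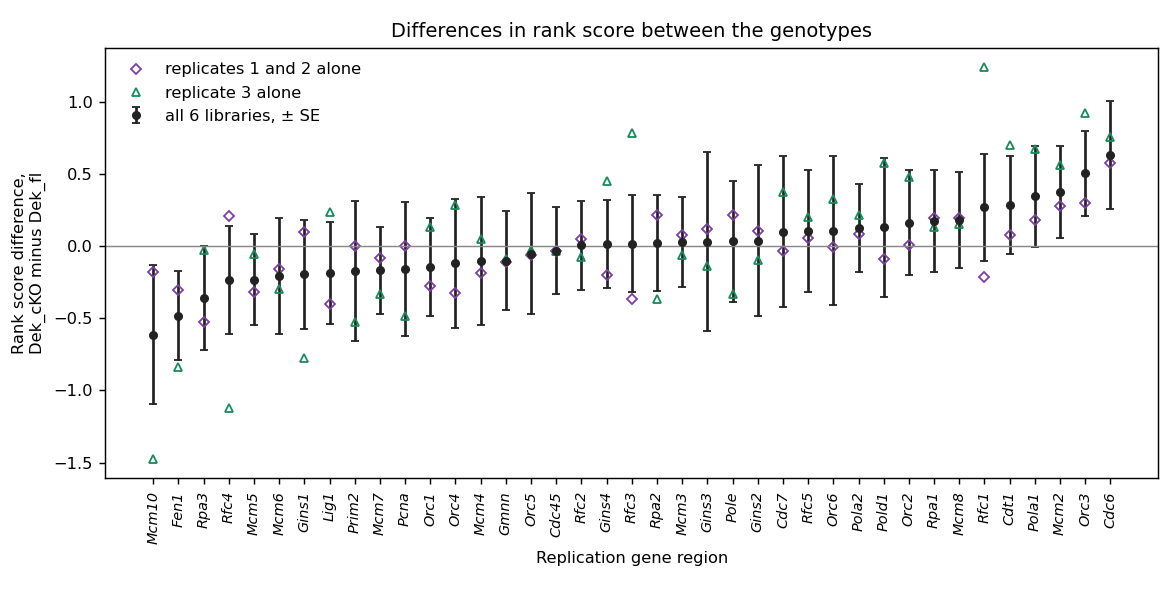
Difference in rank score, Dek_cKO minus Dek_fl (vertical axis), for each replication gene region (horizontal axis), with its standard error from limma over all 6 libraries (black), beside the difference in replicates 1 and 2 (purple) and in replicate 3 (green). The values run from -0.61 (Mcm10) to 0.63 (Cdc6), and no region passed the test.

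The 8 members of smallest p, 4 per direction, are given with every library. Orc3, an origin recognition subunit at chr4:34613832-34615760, had folds of 9.80, 10.8 and 14.7 in Dek_cKO libraries and 7.61, 8.27 and 10.1 in Dek_fl libraries. Its percentiles were 88.5, 88.3 and 91.7 in Dek_cKO libraries and 78.8, 84.1 and 68.0 in Dek_fl libraries. By rank the groups of Orc3 did not overlap, although by fold they did, with a difference of 0.50 (SE 0.30), an unadjusted p of 0.122 and an adjusted p of 1.0 by limma. It was the 1 member with all Dek_cKO ranks above all Dek_fl ranks, a pattern that 2.1% of shared regions had. Cdc6, at chr11:98907356-98908403, had percentiles of 89.8, 98.1 and 86.9 in Dek_cKO libraries and 83.8, 88.6 and 64.3 in Dek_fl libraries. It was higher in Dek_cKO in 3 of 3 pairs of one replicate number, as were Orc3 and Pola2, while Mcm5 and Fen1 were higher in none. The share of all regions with such patterns was not computed. The groups of Cdc6 overlapped, with a difference of 0.63 (SE 0.37). The other members with a positive difference in this set were Mcm2, with 0.37 (SE 0.32), and Pola1, the catalytic subunit of polymerase alpha, with 0.34 (SE 0.35). Pola1, at chrX:93631368-93632867, had percentiles of 56.2, 88.5 and 82.5 in Dek_cKO libraries and 64.7, 73.1 and 60.5 in Dek_fl libraries, so it overlapped too.

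In the other direction, Fen1, the flap nuclease of Okazaki fragments at chr19:10203084-10205117, had percentiles of 63.7, 65.7 and 66.1 in Dek_cKO libraries and 70.1, 79.8 and 89.5 in Dek_fl libraries. Its folds were 8, 8.98 and 10.9 in Dek_cKO libraries and 7.08, 7.98 and 13.1 in Dek_fl libraries. By rank the groups of Fen1 did not overlap, although by fold they did, and the difference was -0.48 (SE 0.31), with an adjusted p of 1.0 by limma. It was the 1 member with all Dek_cKO ranks below all Dek_fl ranks, against 2.27% of shared regions; with 1 of 39 members in each direction, both counts are near the background. Mcm10, at chr2:5011758-5013462, had the lowest difference, -0.61 (SE 0.48), and it rested on 1 library. Its percentiles were 92.2, 96.3 and 48.8 in Dek_cKO libraries and 98.3, 92.6 and 92.6 in Dek_fl libraries, and without Dek_cKO replicate 3 the difference was -0.07. Rpa3, the smallest RPA subunit at chr6:8258442-8259984, had 74.9, 78.0 and 91.6 in Dek_cKO libraries and 95.8, 78.0 and 91.9 in Dek_fl libraries, a difference of -0.36 (SE 0.36). Mcm5, at chr8:75108645-75110301, had 79.5, 70.5 and 64.3 in Dek_cKO libraries and 86.7, 81.3 and 66.4 in Dek_fl libraries, a difference of -0.23 (SE 0.32). The sizes of these differences depended on single libraries. Cdc6 was at 0.34 without Dek_cKO replicate 2 and at 0.39 without Dek_fl replicate 3, and Mcm2 at 0.22 and 0.23 without the same libraries. Pola1 was at 0.13 without Dek_cKO replicate 2 and at 0.65 without Dek_cKO replicate 1. Fen1 was at -0.29 without Dek_fl replicate 3. Rpa3 ranged from -0.63 without Dek_fl replicate 2 to -0.15 without Dek_fl replicate 1, and Mcm5 from -0.42 without Dek_fl replicate 3 to -0.08 without Dek_fl replicate 1. None of the 8 passed the threshold in a fit on all 6 libraries.

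Other genes of the cell cycle were looked at in lists of their own. Of 29 other replication factors, 27 were called at a gene end in every library, and Atad5, which unloads PCNA, and Rnaseh2a, an RNase H2 subunit, lacked one in Dek_cKO replicate 3. Of 12 nucleotide supply genes, 10 had one; Dtymk, thymidylate kinase, lacked it in Dek_cKO replicate 3, and Tk1, thymidine kinase, in replicate 3 of both genotypes. Of 17 genes of the E2F family and the DREAM complex, 15 had one, the others being Lin54, which lacked it in Dek_cKO replicate 3, and E2f2, which had it in 4 libraries. All 20 mitosis genes had one. By the listed start alone, Rnaseh2a and Lin54 had a peak in 3 Dek_cKO and 3 Dek_fl libraries. Atad5, Dtymk and E2f2 had a start peak in 2 Dek_cKO and 3 Dek_fl libraries, and Tk1 in 2 of each. Conversely, Timeless had a start peak in 2 Dek_cKO and 1 Dek_fl libraries, and Tfdp2 in 3 and 2. No gene of the 4 lists passed the rank test. The median difference was 0.02, -0.13, -0.06 and 0.02 for replication factors, nucleotide supply, E2F and DREAM, and mitosis. The genes of smallest p in each direction were Pole2, 0.61 (SE 0.44), and Dna2, -0.55 (SE 0.58), among replication factors. They were Nme1, 0.12 (SE 0.32), and Dctpp1, -0.42 (SE 0.31), in nucleotide supply, E2f6, 0.45 (SE 0.32), and Tfdp1, -0.34 (SE 0.29), in the E2F list, and Nusap1, 0.34 (SE 0.29), and Ccna2, -0.42 (SE 0.42), in mitosis. The median percentile of fold was 67.4 ± 6.03 in Dek_cKO libraries and 67.5 ± 7.74 in Dek_fl libraries for the other replication factors, and 47.2 ± 3.77 in Dek_cKO libraries and 47.6 ± 1.59 in Dek_fl libraries for the E2F and DREAM genes. Mitosis genes stood at 78.9 ± 9.02 in Dek_cKO libraries and 78.0 ± 3.85 in Dek_fl libraries, and nucleotide supply genes at 83.1 ± 5.20 in Dek_cKO libraries and 80.0 ± 8.46 in Dek_fl libraries. By fold the genotypes differed by less than the spread between libraries in each of these lists. Ranked by −log10 p, the E2F and DREAM genes stood at 73.5 ± 4.80 in Dek_cKO libraries (68.1 to 77.2) and 64.7 ± 2.53 in Dek_fl libraries (62.4 to 67.4), without overlap and with no test of the list, while the genotypes of the other 3 lists overlapped.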

How the data were processed

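ATAC-seq peak lists of 3 Dek_cKO and 3 Dek_fl libraries were used, 1 per library. The submitters' processing notes name MACS2, Bowtie2 and Picard, and build mm10; their versions and settings, and any Tn5 shift, are not given in the sources used. Each deposited list holds, per peak, a score, a fold (a ratio of the summit over local background), a −log10 p-value and a −log10 q-value. In 100% of peaks the score the authors deposited was within 1 unit of 10 times the −log10 q-value (replicates 1 and 2) or the −log10 p-value (replicate 3). Read depth is unknown, so no counting interval can be given.

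Overlapping peaks (1 bp or more, chromosomes 1 to 19 and X) were joined (84592 regions, 19683 called in all 6 libraries). A gene was called when a peak lay within 1 kb of either annotated end. One region stood for a gene: that at its listed start, or else its gene-end region of highest mean −log10 p percentile. Ranks of fold over the shared regions became normal scores, tested with limma 3.58.1 (R 4.3.3) without a block, with Benjamini-Hochberg adjustment over all shared regions. The procedure was also run on simulated data. The outcome of that run is not given here, so the size of shift the test could detect is left unstated. Deviations of same-numbered libraries correlated at 0.27, 0.52 and 0.74, but Dek_cKO replicate 1 correlated more with Dek_fl replicate 2 (0.57). The main test therefore did not pair the numbers. Pairs of one number were used for description and in the replicate block alone. The replicate block changed no call of a member. Members, lists and tests were chosen with earlier results of these data known. Members were named with values when not called in all libraries, when among the 4 highest or 4 lowest percentiles, when among the 4 smallest p per direction, or when the groups did not overlap. Starts and sequences are RefSeq's, build GRCm38.p6. Alternatives were equal-length lists, a −log10 q-value of at least 10, windows of 500 bp and 2 kb, starts alone, a 100 bp overlap, ranks of −log10 p, a batch term, the block and each library left out.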

Additional observations from a re-analysis of the deposited data

How the results depend on the processing

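The count of members with a gene-end peak in all 6 libraries was 31 of the 32 with a listed start when starts alone were used, and 35 to 37 of 40 under the other alternatives. The difference in the share of members called, 0.833 percentage points, ran from -0.833 (without Dek_fl replicate 3) to 1.67 when each library was left out in turn, and was 2.5 in replicate 3 alone and 0 in replicates 1 and 2. With replicate 3 of both groups alone, 1 member (Prim1) was called in Dek_cKO and not in Dek_fl, against 0 over all libraries. The median rank score difference of the members, 0.02, ran from -0.13 (without Dek_fl replicate 2) to 0.11 (without Dek_fl replicate 1), and was -0.0044 without Dek_fl replicate 3; the cause was not tested. The median percentile of the members, 82.3, was 85.4 with −log10 p ranked and 78.0 at a −log10 q-value of at least 10, and ran from 80.5 to 83.1 when each library was left out. With the replicate block, 1 shared region, not a member, was higher in Dek_cKO at an adjusted p under 0.05, against 0 without it, and 0 were lower with or without it; no other call changed. At an unadjusted p under 0.05 the block gave 585 higher and 289 lower regions, against 68 and 19 without it. Among members, Cdc6 and Mcm10 alone were under an unadjusted 0.05 with the block, and none was without it. With the block these are 2 of 39 members, against 874 of all 19683 regions, so the count is near the background. The 8 members named by the rank test were chosen by their p, and their differences kept their sign in the alternatives run; the block and the batch term cannot move the difference itself, so their agreement says nothing. Unknown read depth and 3 libraries per group limit what could be seen, and a missing call in the shorter lists of replicate 3 may be an open region.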
